A study of Mus musculus with 6 samples.

Results

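Solute carriers are the membrane proteins that move sugars, amino acids, nucleosides, ions, metals and metabolites into and out of cells and organelles. The 181 solute carriers described here were chosen by name and level: genes on chromosomes whose symbol has the form Slc, number, letter, number, and whose FPKM (fragments per kilobase of transcript, scaled to the mapped fragments of the library) was at least 1 in at least 2 of 6 libraries of thymic endothelial cells (ECs). They are 181 of 358 genes with such a symbol, among 11717 genes that passed the same filter and 24457 genes measured on chromosomes. The rule thus used the level of these genes and not differences between the EC subsets. It was set with earlier results of these data known and after the supplementary tables of the study had been read. Those tables, from the same libraries, hold some of the carriers called here, among them Slc2a1 and Slc6a6, so these calls are not independent support. All 6 libraries came from wildtype female C57BL/6 mice of 4 to 6 weeks. ECs were sorted from the digested thymus as CD31+CD45-EpCAM- cells and divided by 2 surface proteins, Ly6C and P-selectin (Selp), into type I (Ly6C+Selp-), type II (Ly6C+Selp+) and type III (Ly6C-Selp+) ECs, with 2 libraries of each. The question of the design was how the RNA of the 3 subsets differs. The labels do not say whether the 2 replicates came from separate animals, so p-values measure the spread between these libraries, which may be technical.

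Endothelium lies between blood and tissue, and its carriers decide which nutrients cross the vessel wall and which feed the ECs themselves. Glucose enters through facilitative transporters of the Slc2 family, amino acids through exchangers that share the Slc3a2 heavy chain and through sodium-coupled carriers, and lactate and related acids through the Slc16 family. The Slc25 family works in the inner mitochondrial membrane, the Slc35 family carries nucleotide sugars into the Golgi and endoplasmic reticulum, and the Slc30 and Slc39 families move zinc out of and into the cytosol.

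The deposited tables hold FPKM, which Cufflinks computed in each library on its own, and no counts. The fragments behind each value, read back from its 95% interval, summed to between 1452476 and 2423171 per library, and 3 fragments corresponded to a median FPKM of 0.404 to 0.716. The sort genes followed the labels, with Selp at an FPKM of 5.20 to 7.87 in type I and 313 to 657 in the Selp+ libraries, and Ly6c1 at 351 to 1010 in the Ly6C+ libraries and 59.7 to 99.6 in type III. The summed FPKM of 8 endothelial markers, among them Pecam1 and Cdh5, was 1850 to 2680, and 2 of them (Cldn5 and Kdr) were called lower in type III than in type I. The summed markers of each other cell type were lower in every library. Single ones lay above some endothelial markers. Rgs5 was at 346 and Kdr at 206 in type I replicate 1, and Lyz2 was at 296 and Kdr at 63.4 in type III replicate 1. The summed FPKM of 8 markers of pericytes and smooth muscle was lower in type III. It was 553 and 228 in type I, 479 and 322 in type II, and 102 and 158 in type III. Rgs5 was the largest part of it, at 346 and 114 in type I and 48.6 and 45.4 in type III. Of the 8, 6 lay lower in both type III libraries than in both type I libraries, against 17.1% of all genes. Acta2 lay higher in both, at 13.7 and 7.53 in type I and 16.9 and 33.8 in type III. Myh11 overlapped, at 17.7 and 9.4 in type I and 14.8 and 32.9 in type III. Limma called 3 of 8 lower in type III than in type I (Kcnj8, Notch3 and Pdgfrb), with Kcnj8 at 0 in 1 type III library. These 3 calls were lost without type I replicate 1 and without type III replicate 1, that of Notch3 also without type I replicate 2, with adjusted p up to 0.098, 0.15 and 0.11 in limma, and that of Kdr was lost without either type III replicate (up to 0.082). Those of macrophages moved with the replicate number, at 377, 148 and 586 in the libraries numbered 1 and 55.3, 53.8 and 101 in those numbered 2. Of the tested markers of thymocytes (10), macrophages (6), thymic epithelium (7) and fibroblasts (4), limma called 0 between type III and type I ECs, with 3 at an unadjusted p under 0.05 (1 of thymocytes and 2 of epithelium), and of 3 erythroid markers it called 1 lower, the globin gene Hba-a1, which has near-identical copies and is uncertain for that (adjusted p = 0.0017 in limma, and called when any 1 library was left out). Though not called, all 10 tested thymocyte markers were higher on average in type III than in type I. Their differences of log2(FPKM + 1) were 0.51 to 1.66, with a median of 1.02 against 0.08 over all genes. The summed FPKM of 12 thymocyte markers was 117 and 31.1 in type I, 80.0 and 49.1 in type II and 206 and 92.9 in type III. The part of thymocytes in the differences of the carriers was not tested.

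Most carriers were at a low level. Over the 6 libraries, 104 of 181 had a mean FPKM below 5, 56 lay between 5 and 20, 21 were at 20 or above and 0 reached 100, with a median of 4.24 against 6.26 over all genes tested. The highest were Slc25a5, a mitochondrial ADP/ATP carrier, at a mean FPKM of 90.2, Slc3a2, the heavy chain of amino acid exchangers, at 85.2, Slc43a3, a purine nucleobase carrier, at 79.0, and Slc25a3, the mitochondrial phosphate carrier, at 77.3. They were followed by Slc25a4, another ADP/ATP carrier, at 71.4, the zinc importer Slc39a1 at 60.3, the equilibrative nucleoside transporter Slc29a1 at 52.6 and the potassium chloride cotransporter Slc12a7 at 45.5. Of the 181, 128 had an FPKM of at least 1 in all 6 libraries. Of the other 177 symbols, 70 were listed at 0 in every library.

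Between type III and type I ECs, 10 of the 181 carriers passed an adjusted p of 0.05 in limma, which was fitted over all 11717 genes on log2(FPKM + 1). Of these, 4 (2.21% of the 181) rose, against 2.09% of all genes tested, and 6 (3.31%) fell, against 2.05% of all genes. Those that rose were Slc2a1, Slc16a9, Slc26a2 and Slc37a1. Those that fell were Slc26a10, Slc6a6, Slc28a2, Slc16a11, Slc16a13 and Slc39a14. On mm9 the genes lie apart except for Slc16a11 and Slc16a13, with Slc2a1 at chr4:118781350-118809934, Slc16a9 at chr10:69708024-69748699, Slc37a1 at chr17:31432428-31487643, Slc6a6 at chr6:91634061-91709057 and Slc28a2 at chr2:122252213-122286866 on the plus strand and Slc39a14 at chr14:70703274-70751231 on the minus strand. The number called moved from 10 to 3 without type I replicate 2, to 5 without type III replicate 1 and to 4 without type III replicate 2, and the calls of Slc2a1, Slc26a10 and Slc6a6 were made in each of these fits. With the replicate number as a block, 13 were called (7.18% of the 181), against 8.29% of all genes, adding Slc1a5, Slc1a1 and Slc30a1. An unadjusted p under 0.05 was reached by 28 carriers (15.5%), against 14.1% of all genes.

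The other 2 comparisons called fewer. Between type II and type I ECs, 0 carriers were called higher by limma, against 0.324% of all genes, and 1 lower (0.552%, Slc26a10), against 0.0683% of all genes, while 13 (7.18%) had an unadjusted p under 0.05, against 7.48% of all genes. This call was lost when any 1 of the 4 type I and type II libraries was left out, and with the block 4 carriers (2.21%, against 1.56% of all genes) were called, Slc2a1 and Slc26a2 higher and Slc26a10 and Slc6a6 lower. Between type III and type II ECs, 0 were called in either direction by limma, against 0.0939% of all genes higher and 0.128% lower, while 17 (9.39%) had an unadjusted p under 0.05, against 9.99% of all genes. With the block 2 (1.1%, against 1.95% of all genes in either direction) were called, Slc26a10 and Slc6a6, both lower. The 3 comparisons share their libraries and are not independent of each other.

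Counted without a test, both type III libraries lay above both type I libraries for 44 of 181 carriers (24.3%), against 20.7% of all genes, and below both for 28 (15.5%), against 17.1% of all genes. An exact permutation test of 2 libraries against 2 cannot reach 0.05 for a single gene. The median difference between type III and type I ECs, on the log2(FPKM + 1) scale, was 0.09 over the carriers and 0.08 over all genes tested, and the median absolute difference was 0.31 in both. The 10 that passed the test had differences of 1.42 or more in absolute size.

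**Figure D1:**
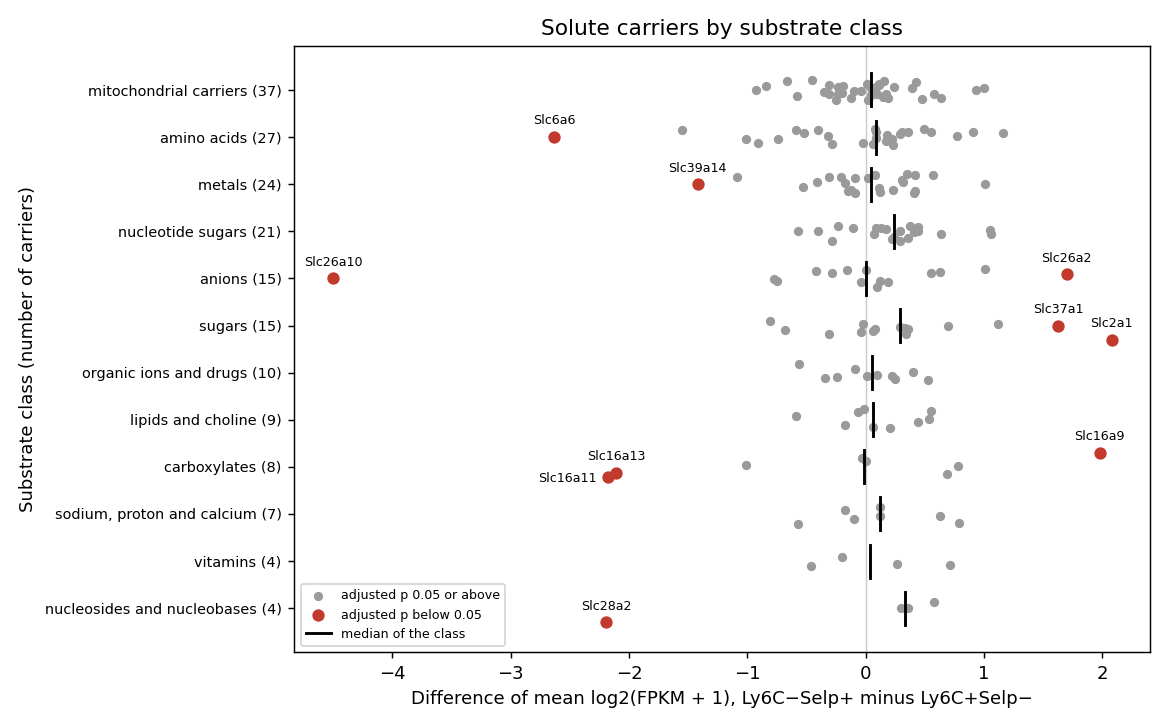
Difference of mean log2(FPKM + 1) between type III (Ly6C-Selp+) and type I (Ly6C+Selp-) ECs on the x axis for each of 181 carriers, in rows by substrate class with the number of carriers in brackets; red points had an adjusted p below 0.05 in limma, black bars are class medians. The 10 red points lie at -4.50 to -1.42 and at 1.63 to 2.08, in 6 of the 12 classes, while the class medians lie between -0.01 and 0.33.

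By substrate, the largest class was that of mitochondrial carriers (37), followed by carriers of amino acids (27), metals (24), nucleotide sugars (21), sugars (15), anions (15), organic ions and drugs (10), lipids and choline (9), carboxylates (8), sodium, protons and calcium (7), nucleosides and nucleobases (4) and vitamins (4). The carboxylate class held 3 calls in 8 carriers, sugars 2 in 15, anions 2 in 15, and amino acids, metals and nucleosides 1 each. Of all genes, 2.09% were called higher and 2.05% lower between type III and type I. Of the 3 carboxylate calls, 2 were the neighbours Slc16a11 and Slc16a13, which may not be independent of each other. Whether any class held more calls than other genes was not tested. None of the mitochondrial, nucleotide sugar, organic ion, lipid, sodium and proton, or vitamin carriers was called by limma in any comparison. Between type III and type I, an unadjusted p under 0.05 was reached by 5 mitochondrial carriers, 1 nucleotide sugar carrier, 1 vitamin carrier and 0 of the other 3 classes. The class medians of the difference between type III and type I ECs lay between -0.01 for carboxylates and 0.33 for nucleosides and nucleobases, and those of lipids, metals and mitochondrial carriers, at 0.06, 0.05 and 0.05, turned to -0.03, -0.02 and -0.03 under median-of-ratios scaling of the libraries.

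To show what lies before carriers that rose and fell, 4 promoters are given, each the 250 bases before the gene start in RefSeq on GRCm38.p6, read 5′ to 3′ along the gene. RefSeq sequences matched 138 of 181 carriers and 6 of the 10 called. Of these 6, Slc16a9 and Slc28a2 are not printed, and no rule was stated for the choice. Capitals mark motifs found on either strand: the GC box GGGCGG, which reads CCGCCC from the other strand, the hypoxia response core ACGTG, which reads CACGT from the other strand, and the TATA motif TATAAA, which reads TTTATA from it. A match describes the letters and is not evidence of binding. The first 2 genes rose from type I to type III ECs, and the last 2 fell. The windows are Slc2a1 at chr4:119108495-119108744 and Slc37a1 at chr17:31295974-31296223, both on the plus strand, Slc26a10 at chr10:127180583-127180832 on the minus strand and Slc16a11 at chr11:70213660-70213909 on the plus strand.
Slc2a1: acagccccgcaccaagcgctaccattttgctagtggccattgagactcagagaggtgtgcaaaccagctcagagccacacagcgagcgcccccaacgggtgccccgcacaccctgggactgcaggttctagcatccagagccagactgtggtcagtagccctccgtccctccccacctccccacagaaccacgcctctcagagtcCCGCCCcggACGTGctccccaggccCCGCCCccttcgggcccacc
Slc37a1: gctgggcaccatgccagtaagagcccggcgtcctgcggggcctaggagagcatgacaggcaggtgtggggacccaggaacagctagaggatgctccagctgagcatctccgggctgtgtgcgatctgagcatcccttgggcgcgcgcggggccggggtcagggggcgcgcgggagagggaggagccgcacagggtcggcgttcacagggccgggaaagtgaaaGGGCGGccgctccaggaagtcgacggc
Slc26a10: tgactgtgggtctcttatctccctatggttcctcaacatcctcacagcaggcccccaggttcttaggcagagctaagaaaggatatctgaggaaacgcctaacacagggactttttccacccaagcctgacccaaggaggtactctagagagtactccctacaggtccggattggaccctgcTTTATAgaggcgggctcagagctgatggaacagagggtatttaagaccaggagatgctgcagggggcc
Slc16a11: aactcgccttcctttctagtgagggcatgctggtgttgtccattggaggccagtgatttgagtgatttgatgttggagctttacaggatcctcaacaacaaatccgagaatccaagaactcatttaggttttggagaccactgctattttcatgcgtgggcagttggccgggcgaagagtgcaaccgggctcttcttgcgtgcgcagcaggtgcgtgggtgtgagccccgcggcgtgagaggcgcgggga

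The Slc2a1 window held 2 GC boxes and 1 hypoxia response core, which starts at position -36 counted from the gene start. The Slc37a1 window held 1 GC box, at -27, and the Slc26a10 window 1 TATA motif, at -68. In the Slc16a11 window none of these letters were found. Of the matched windows not printed, that of Slc16a9, which rose, held 3 GC boxes and had a GC content of 70.4%. The window of Slc28a2, which fell, held none of the motifs and had a GC content of 45.2%. Of the 138 promoters of carriers, 63.0% held a GC box, 23.2% a hypoxia response core and 6.52% a TATA motif, against 32.9%, 16.6% and 13.0% of 27025 promoters of all genes. The ETS motif CCGGAA, also searched on both strands, was in 21.7% and 12.2%, and in none of the 4 windows printed. All 138 carriers had passed the FPKM filter, whereas the 27025 promoters were not filtered by level. Shares over the genes that passed the filter were not computed, so these differences cannot be tied to the carriers. The GC content was 66.4% for Slc2a1, 69.6% for Slc37a1, 53.2% for Slc26a10 and 54.8% for Slc16a11, against a median of 52.0% over all promoters.

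Among sugar carriers, Slc2a1, the glucose transporter GLUT1 of endothelial barriers, rose from type I to type III ECs. Its FPKM was 12.9 and 15.9 in the type I replicates, 35.5 and 46.4 in type II and 56.0 and 72.9 in type III. The 3 subsets did not overlap, and type II lay between the others. Type III differed from type I by 2.08 ± 0.27 (SE) on the log2(FPKM + 1) scale, with a ratio of mean FPKM of 4.47 and an adjusted p of 0.0030 in limma, while it was 2.04 within the libraries numbered 1 and 2.13 within those numbered 2. Between type II and type I it was 1.44, with an adjusted p of 0.075, and 0.0085 with the replicate block.

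Slc37a1, an exchanger of glucose 6-phosphate and phosphate in the endoplasmic reticulum, had an FPKM of 0.583 and 0.374 in type I ECs, from 4 and 3 fragments. It was 2.78 and 3.16 in type II and 3.11 and 4.10 in type III. Both Selp+ subsets lay above type I and overlapped each other. The difference between type III and type I was 1.63 ± 0.35, with an adjusted p of 0.033 in limma, which rose above 0.05 when any 1 of the 6 libraries was left out. The other sugar carriers were not called. Slc2a3, the glucose transporter GLUT3, was at 3.73 and 1.76 in type I and 5.21 and 2.48 in type III, with a difference of 0.36 ± 0.43. Slc50a1, a Golgi sugar transporter and the second most abundant of the class, was at 44.4 and 38.3 in type I and 30.7 and 35.6 in type III.

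The enzymes that use the glucose were read from a list of 17 glycolysis genes. Of 15 tested, 0 were called in limma in any comparison, while 4 had an unadjusted p under 0.05 between type III and type I. The median difference between type III and type I was 0.35, against 0.08 over all genes. The summed FPKM of the list was 1130 and 849 in type I, 1040 and 1050 in type II and 1260 and 1350 in type III. Pkm, pyruvate kinase, was the member with the largest difference, 0.95 ± 0.23 with an adjusted p of 0.058.

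The carboxylate carriers of the Slc16 family moved in both directions. Slc16a13 and Slc16a11, family members linked to the transport of lactate and pyruvate, fell from type I to type III ECs. Slc16a13 was at an FPKM of 11.5 and 20.6 in type I, 5.79 and 7.05 in type II and 3.06 and 2.56 in type III. Slc16a11 was at 4.72 and 10.5 in type I, 2.17 and 2.94 in type II and 0.287 and 1.50 in type III, where the lowest value came from 1 fragment. The subsets did not overlap for either gene. The difference between type III and type I was -2.11 ± 0.34 for Slc16a13 (adjusted p = 0.0093 in limma) and -2.18 ± 0.46 for Slc16a11 (adjusted p = 0.033 in limma). Without type I replicate 2 the values became -1.72 (adjusted p = 0.078 in limma) and -1.67 (adjusted p = 0.24 in limma). The call of Slc16a13 was also lost without type III replicate 2, and that of Slc16a11 without type III replicate 1.

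The genes Slc16a11 and Slc16a13 are neighbours that end toward each other. On mm9, Slc16a11 lies on the plus strand at chr11:70027412-70029916 and Slc16a13 on the minus strand at chr11:70030294-70034496, with 377 bases between them. The library kit does not mark strand, so fragments past the end of either gene could not be assigned to one of them. A further 3132 bases on, Bcl6b, a transcriptional repressor of the BCL6 family, was at 27.2 and 33.9 in type I, 19.5 and 14.9 in type II and 10.1 and 8.42 in type III, and fell by 1.62 on the log2 scale between type I and type III (adjusted p = 0.012 in limma, up to 0.089 without type I replicate 2 or either type III replicate). Bcl6b was chosen for its position. Of all carriers, 4 pairs of members lay less than 50 kb apart, and Slc16a11 with Slc16a13 was the closest.

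Slc16a9, a family member linked to carnitine transport, rose. Its FPKM was 1.42 and 0.228 in type I, 3.00 and 2.56 in type II and 6.88 and 4.85 in type III, and the subsets did not overlap. Type III differed from type I by 1.98 ± 0.41, with an adjusted p of 0.030 in limma. The call was lost without type I replicate 2 or either type III replicate. Slc16a1 (MCT1), the main monocarboxylate transporter, was at 3.76 and 2.83 in type I and 8.09 and 4.89 in type III, and did not pass the test, with a difference of 0.78 ± 0.34. Its chaperone Bsg was at 163 and 133 in type I and 229 and 246 in type III, with a difference of 0.68 ± 0.22 and an adjusted p of 0.17 in limma.

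Among amino acid carriers, Slc6a6, the taurine transporter, fell. Its FPKM was 65.5 and 66.0 in type I ECs, 27.7 and 25.8 in type II and 12.5 and 7.62 in type III, from 167 fragments or more in each library. The subsets did not overlap, and the replicates of type I and type II lay close together. The difference between type III and type I was -2.63 ± 0.28, with a ratio of mean FPKM of 0.153 and an adjusted p of 0.0012 in limma, while it was -2.30 within the libraries numbered 1 and -2.96 within those numbered 2. The steps through type II did not pass without the block. Type II differed from type I by -1.27 (adjusted p = 0.14 in limma, 0.033 with the block) and type III from type II by -1.36 (0.12 and 0.027).

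The pericyte and erythroid markers called lower in type III ECs moved in the same direction as the 6 carriers that fell, and the part of these cells in the differences was not tested. The summed FPKM of the pericyte markers overlapped between type I and type II, at 228 to 553 and 322 to 479, as did Slc39a14. The summed FPKM of 5 erythroid markers was 58.2 and 116 in type I, 43.9 and 21.0 in type II and 0 and 10.9 in type III, with no overlap between the subsets, as for Slc6a6, Slc26a10, Slc28a2, Slc16a11 and Slc16a13. In bulk RNA, fewer cells of a type and less RNA per cell cannot be told apart.

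**Figure D2:**
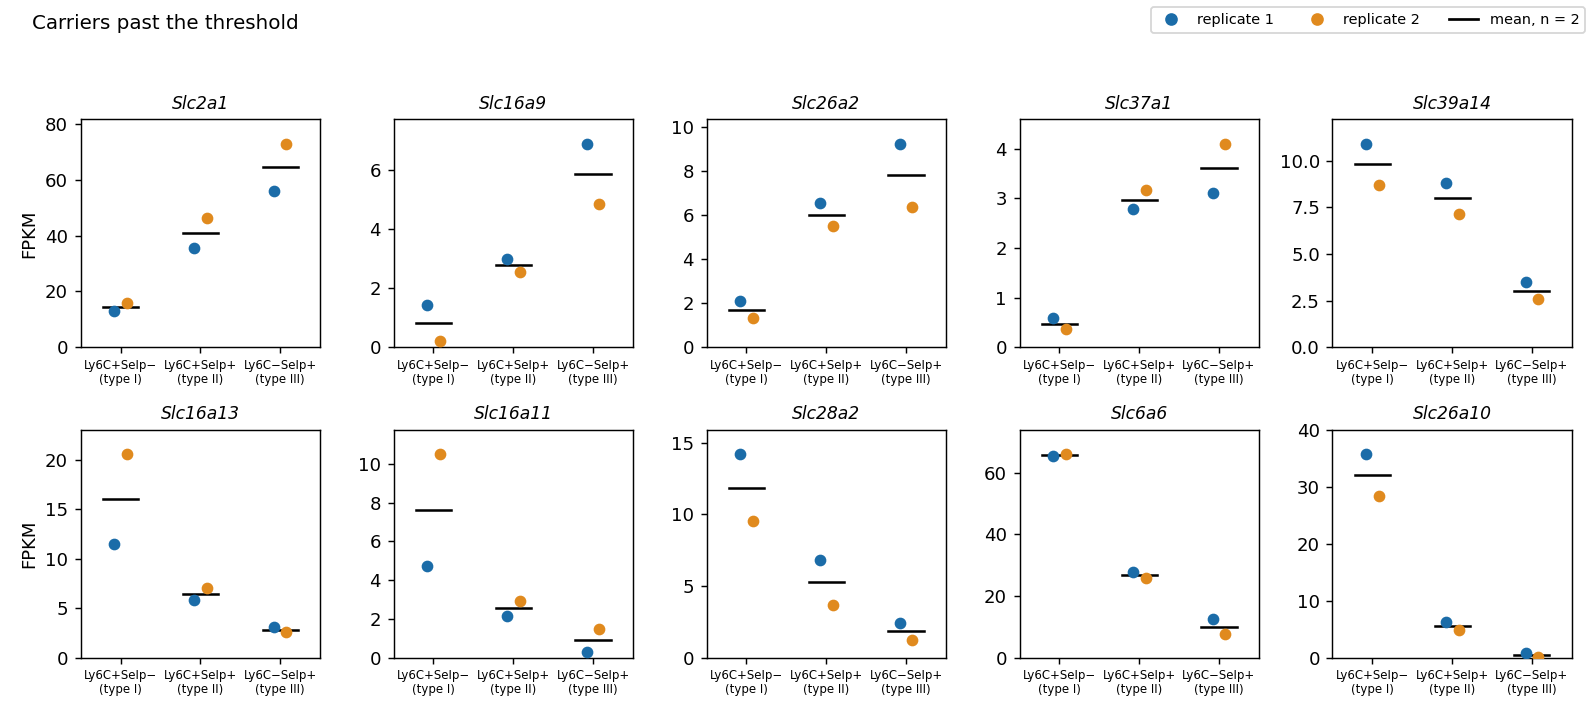
FPKM (y axis, linear, from 0) of the 10 carriers called between type III and type I ECs in each of 6 libraries, by subset on the x axis, with replicate 1 in blue, replicate 2 in orange and the mean of 2 as a bar. Slc2a1 reaches 72.9 in type III while Slc6a6 and Slc26a10 reach 66.0 and 35.8 in type I, and the type II mean lies between the other means in all 10 panels.

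The other amino acid carriers did not pass the test without the block. Slc1a5 (ASCT2), the glutamine carrier, was at 22.4 and 14.3 in type I, 34.2 and 39.9 in type II and 44.6 and 38.4 in type III. Both Selp+ subsets lay above type I. Type III differed from type I by 1.16 ± 0.28, with adjusted p = 0.057 in limma and 0.017 with the block. Slc1a1, a glutamate carrier, was at 3.00 and 1.96 in type I and 0.381 and 0 in type III, with adjusted p = 0.090 in limma and 0.030 with the block.

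The exchanger chain Slc3a2 was at 110 and 99.6 in type I, 80.9 and 74.9 in type II and 70.7 and 74.5 in type III, with a difference of -0.52 ± 0.22 and an adjusted p of 0.32 in limma. Its light chain Slc7a5 (LAT1) was far lower, between 2.28 and 4.24 in all 6 libraries, and its difference of 0.06 ± 0.35 turned to -0.02 under median-of-ratios scaling. The cationic amino acid carrier Slc7a1 was at 7.39 and 5.63 in type I, 5.05 and 5.19 in type II and 7.70 and 7.22 in type III (difference 0.18). Among other light chains, Slc7a7 was at 5.66 to 12.1 and Slc7a6 at 3.50 to 6.05. The sodium-coupled carrier Slc38a2, which supplies small neutral amino acids, was at 33.8 and 32.8 in type I, 27.9 and 27.7 in type II and 21.7 and 21.9 in type III, and its difference of -0.59 ± 0.23 did not pass (adjusted p = 0.29 in limma). Of 11 genes of the amino acid response tested, such as Atf4 and Asns, 0 were called in limma in any comparison and 0 had an unadjusted p under 0.05.

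**Figure D3:**
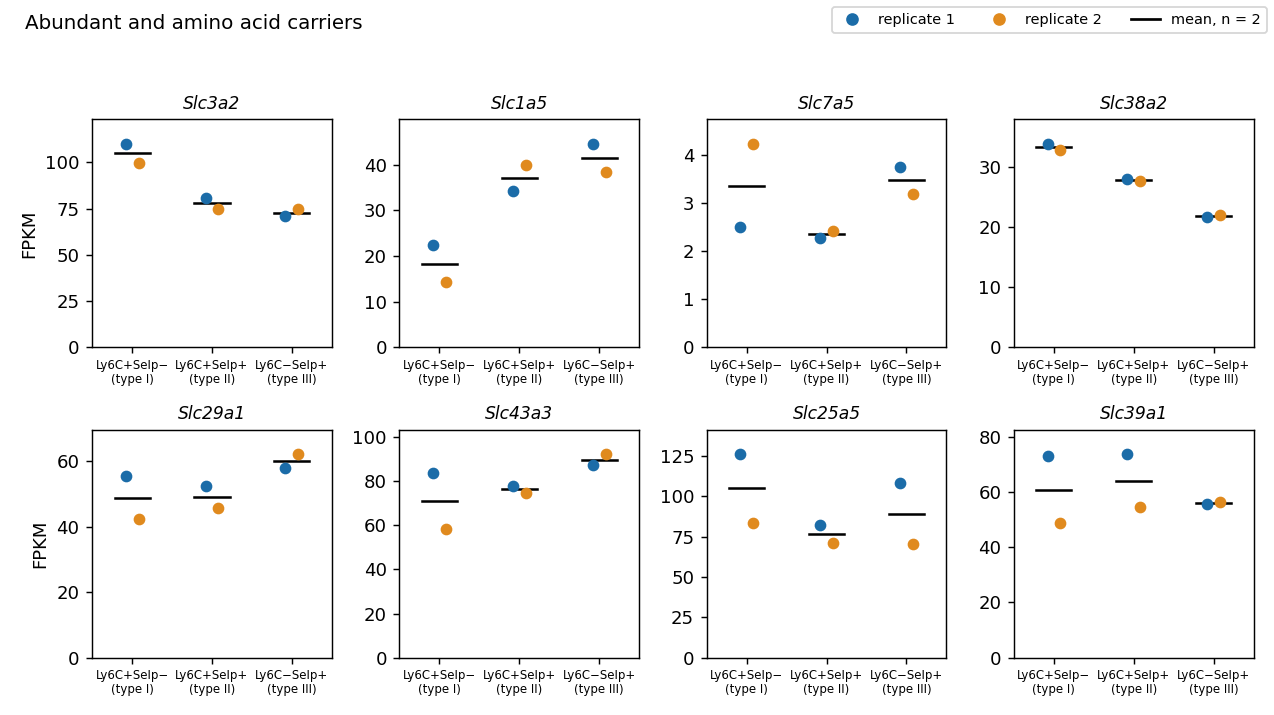
FPKM (y axis, linear, from 0) of 8 abundant or amino acid carriers in each of 6 libraries, by subset on the x axis, with replicate 1 in blue, replicate 2 in orange and the mean of 2 as a bar. None was called by limma without the replicate block; Slc3a2 lies at 70.7 to 110 and Slc7a5 at 2.28 to 4.24.

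Of the 4 nucleoside and nucleobase carriers, Slc28a2, the sodium-coupled carrier that concentrates purine nucleosides, fell. Its FPKM was 14.2 and 9.51 in type I, 6.80 and 3.70 in type II and 2.40 and 1.26 in type III, with no overlap between the subsets. The difference between type III and type I was -2.19 ± 0.39, with an adjusted p of 0.014 in limma, which became 0.054 to 0.10 without either type I replicate or type III replicate 2. The other 3 carriers of the class were not called. Slc29a1 was at 55.4 and 42.3 in type I and 57.8 and 62.1 in type III (difference 0.30 ± 0.24), and Slc43a3 at 83.8 and 58.3 in type I and 87.3 and 92.2 in type III (difference 0.36 ± 0.25), both above Slc28a2 in level. Slc29a3, an equilibrative nucleoside transporter of intracellular membranes, was lower, at 3.66 and 2.73 in type I, 3.75 and 3.04 in type II and 6.44 and 4.26 in type III (difference 0.58 ± 0.34).

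Among anion carriers, Slc26a10, a member of the SLC26 anion exchanger family, showed the largest difference of all 181. Its FPKM was 35.8 and 28.5 in type I, 6.28 and 4.94 in type II and 0.886 and 0.128 in type III, where the values came from 4 and 1 fragments. The subsets did not overlap at all, and the type III level was near the limit of detection. Type III differed from type I by -4.50 ± 0.35 (adjusted p = 0.00023 in limma), and -6.08 with a pseudocount of 0.1, so its size depends on the pseudocount. Type II differed from type I by -2.32 (adjusted p = 0.039 in limma) and type III from type II by -2.17 (0.057, and 0.0098 with the block). On mm9 the gene lies on the minus strand of chromosome 10, from 126609482 to 126617701, and its end is 85 bases from the end of B4galnt1 on the other strand, a glycosyltransferase of ganglioside synthesis. B4galnt1 was at 10.8 and 3.89 in type I, 3.74 and 2.07 in type II and 13.5 and 3.60 in type III, and was not called (difference 0.10).

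Slc26a2, the sulfate transporter whose substrate is used to sulfate proteoglycans, rose. Its FPKM was 2.09 and 1.32 in type I, 6.54 and 5.50 in type II and 9.23 and 6.36 in type III. Both Selp+ subsets lay above type I and overlapped each other. The difference between type III and type I was 1.70 ± 0.34, with an adjusted p of 0.023 in limma. The call was lost without any 1 of the 4 type I and type III libraries. Between type II and type I it was 1.39, with adjusted p = 0.18 in limma and 0.042 with the block. Of the chloride and phosphate carriers that were not called, Slc20a1, a phosphate importer, was at 24.9 and 21.5 in type I and 14.6 and 11.7 in type III (difference -0.77 ± 0.26), and Slc12a2, the sodium potassium chloride cotransporter, at 21.1 and 13.1 in type I and 9.5 ± 0.77 (mean and SD, n = 2) in type III (difference -0.75 ± 0.30). Slc12a7, the most abundant of the class, was at 43.8 and 43.4 in type I, 43.0 and 43.1 in type II and 49.5 and 50.0 in type III (difference 0.19 ± 0.22).

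Among metal carriers, Slc39a14 (ZIP14), which brings zinc, iron and manganese into the cell, fell in type III ECs. Its FPKM was 10.9 and 8.69 in type I, 8.79 and 7.16 in type II and 3.50 and 2.57 in type III. Type III lay below both Ly6C+ subsets, which overlapped. Type III differed from type I by -1.42 ± 0.31, with an adjusted p of 0.035 in limma, which rose to between 0.065 and 0.18 when any 1 of the 6 libraries was left out. Slc30a1, the zinc exporter of the cell surface, was at 23.5 and 16.0 in type I, 11.1 and 12.3 in type II and 11.7 and 6.27 in type III, with a difference of -1.09 ± 0.34 (adjusted p = 0.15 in limma, 0.040 with the block).

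From a list of 8 metallothionein and iron genes, limma called 1 lower in type III than in type I, against 2.05% of all genes. This was the metal-binding Mt1. It was at 146 and 109 in type I, 108 and 68.1 in type II and 39.2 and 50.9 in type III, and fell by 1.48 on the log2 scale between type I and type III (adjusted p = 0.025 in limma, and up to 0.20 without any 1 of the type I and type III libraries). Mt2 was at 89.7 and 45.7 in type I and 64.8 and 51.1 in type III, with a difference of -0.15 ± 0.40. The abundant zinc importer Slc39a1 was at 73.0 and 48.7 in type I, 73.7 and 54.4 in type II and 55.6 and 56.4 in type III, and the subsets overlapped.

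Ferroportin (Slc40a1), the iron exporter, and Slc11a1, a metal carrier of phagosomes in macrophages, divided by replicate number and not by subset. Slc40a1 was at 11.1, 6.21 and 18.9 in type I, II and III replicate 1 and at 1.20, 1.18 and 1.95 in replicate 2. Slc11a1 was at 2.12, 2.60 and 5.30 in replicate 1 and at 0.971, 0.384 and 0.738 in replicate 2. All 3 libraries numbered 1 lay above all 3 numbered 2 for both genes, as for the summed macrophage markers. Of the 181 carriers, 46 (25.4%) lay higher in this way in the libraries numbered 1, against 20.6% of all genes, and 1 (0.552%) lay lower, against 1.42% of all genes. The FPKM counted here were not scaled between libraries. In type I, II and III, the median-of-ratios factors were 1.188, 1.025 and 1.161 for replicate 1 and 0.849, 0.909 and 0.987 for replicate 2. The part of macrophages, of this difference in scale and of other differences between the libraries in these values was not tested.

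**Figure D4:**
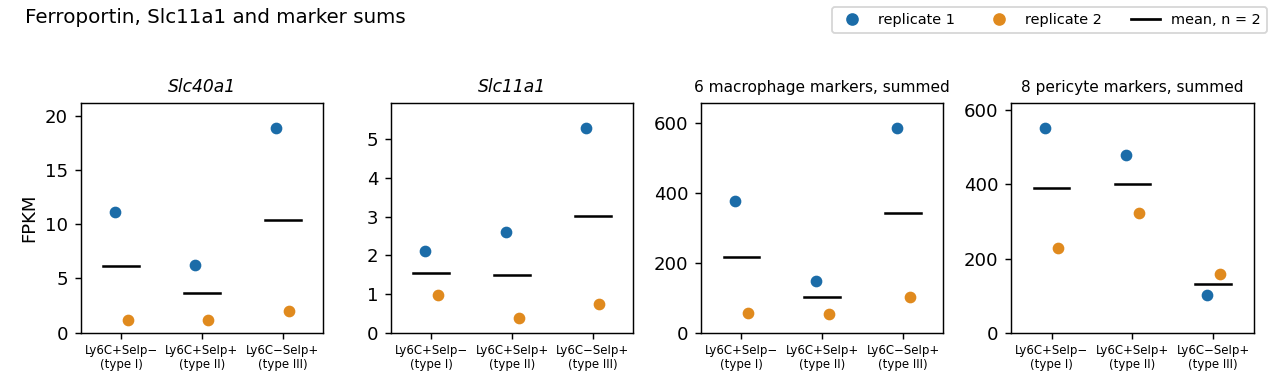
FPKM (y axis, linear, from 0) of Slc40a1 and Slc11a1 and summed FPKM of 6 macrophage and 8 pericyte markers in each of 6 libraries, by subset on the x axis, with replicate 1 in blue, replicate 2 in orange and the mean of 2 as a bar. In the first 3 panels each blue point lies above every orange point, and in the last the type III sums of 102 and 158 lie below the other 4 libraries.

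The mitochondrial class was the largest, and 0 of 37 were called in limma in any comparison; its 37 differences between type III and type I lay between -0.93 and 1.00. The ADP/ATP carrier Slc25a5 was at 126 and 83.6 in type I, 81.9 and 71.3 in type II and 108 and 70.4 in type III, and Slc25a4 at 82.2 and 61.0, 86.3 and 55.7, and 69.8 and 73.5. The difference of Slc25a4, 0.02 ± 0.28, turned to -0.07 under median-of-ratios scaling. Slc25a3 was at 87.4 and 67.4 in type I, 62.3 and 74.4 in type II and 84.7 and 87.8 in type III. All 3 overlapped between type III and type I. Slc25a20, which carries acylcarnitines into mitochondria, was at 4.64 and 5.33 in type I, 5.87 and 5.28 in type II and 12.1 and 8.83 in type III, and did not pass (difference 0.93 ± 0.30, adjusted p = 0.16 in limma).

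Among the 21 nucleotide sugar and related carriers of the Slc35 and Slc33 families, both type III libraries lay above both type I libraries for 5 (23.8%) and below them for 0, against 20.7% and 17.1% of all genes, and limma called 0. Slc35a3, a carrier of UDP-N-acetylglucosamine, was at 6.99 and 3.00 in type I and 10.6 and 5.74 in type III, with a difference of 0.64 ± 0.45. Slc35b2, which brings the sulfate donor PAPS into the Golgi, was at 7.90 and 5.67 in type I, 9.36 and 7.78 in type II and 11.5 and 7.74 in type III, with a difference of 0.44 ± 0.32, and the subsets overlapped.

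The 4 remaining classes held no call. Of the lipid and choline carriers, Slc44a2, a choline transporter, was at 30.4 and 21.8 in type I, 19.6 and 13.0 in type II and 29.8 and 24.3 in type III, and its difference of 0.06 ± 0.30 between type III and type I turned to -0.03 under median-of-ratios scaling. Slc27a3, an acyl-CoA synthetase of the fatty acid transport family, was at 13.6 and 15.6 in type I and 9.72 and 9.02 in type III (difference -0.59 ± 0.26). Of the vitamin carriers, Slc52a3, a riboflavin transporter, was at 6.01 and 7.21 in type I, 8.11 and 9.71 in type II and 10.2 and 12.7 in type III, with no overlap between the subsets and a difference of 0.71 ± 0.29 that did not pass (adjusted p = 0.30 in limma). Slc22a5, the carnitine transporter, was at 4.39 and 4.48 in type I and 7.36 and 6.32 in type III (difference 0.53 ± 0.29). Slc9a8, a sodium proton exchanger of the Golgi, was at 5.91 and 5.41 in type I, 3.92 and 5.74 in type II and 4.95 and 4.92 in type III (difference -0.17 ± 0.31).

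Transporters outside the name rule were read from lists, which were chosen after the supplementary tables of the study had been read. Of 14 solute carriers under other names that were tested, 2 rose in limma from type I to type III, against 2.09% of all genes. Both are organic anion transporters. Slco2a1, which takes up prostaglandins, was at 7.56 and 8.05 in type I, 11.1 and 16.7 in type II and 35.0 and 32.3 in type III (difference 1.98, adjusted p = 0.0051 in limma). Slco2b1 was at 36.8 and 27.7 in type I, 57.8 and 62.4 in type II and 97.9 and 102 in type III (difference 1.62, adjusted p = 0.0062 in limma). Of 21 ABC transporters tested, limma called 1 higher and 1 lower, against 2.09% and 2.05% of all genes. The cholesterol exporter Abca1 rose by 1.28 and Abcc9, a channel subunit also known from pericytes, fell by 2.38 on the log2 scale (adjusted p = 0.017 and 0.014 in limma). Abcc9 was at 43.9 and 19.4 in type I, 31.4 and 16.3 in type II and 4.46 and 5.16 in type III. Like the summed pericyte and smooth muscle markers, though not each of them, Abcc9 was lower in both type III libraries. The part of these cells in it was not tested. The call of Slco2a1 held when any 1 library was left out, while those of Slco2b1, Abca1 and Abcc9 were lost without either type III replicate, that of Abca1 also without type I replicate 2 and that of Abcc9 without type I replicate 1.

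Of 12 carrier partners, water channels and lipid uptake genes, limma called 1 higher and 4 lower in type III than in type I ECs. Of all genes, 2.09% were called higher and 2.05% lower. The list was chosen after the supplementary tables of the study had been read. Those tables, from the same libraries, hold the called genes, so the counts are not independent support. Aqp7, a channel for water and glycerol, was at 69.4 and 49.7 in type I, 20.7 and 11.3 in type II and 1.73 and 0.223 in type III (adjusted p = 0.00046 in limma). Gpihbp1, which holds lipoprotein lipase on capillaries, was at 490 and 392 in type I, 161 and 107 in type II and 59.3 and 36.5 in type III (adjusted p = 0.00067 in limma). The fatty acid binding proteins Fabp4 and Fabp5 fell by 1.35 and 1.15 on the log2 scale (adjusted p = 0.046 and 0.045 in limma). Vldlr, a lipoprotein receptor, was at 0.278 and 0.0953 in type I and 7.91 and 6.63 in type III (adjusted p = 0.0025 in limma). When any 1 library was left out, Aqp7, Gpihbp1 and Vldlr were still called, whereas Fabp4 and Fabp5 were called in 1 of 6 such fits, that without type I replicate 2.

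At the edge of the filter, the 3 carriers just inside it by their second highest value were Slc15a2, Slc25a13 and Slc25a40, whose second highest FPKM were 1.00, 1.01 and 1.04. Those just outside were Slc12a8, Slc16a5 and Slc9a5, with 0.860, 0.858 and 0.824. One carrier, Slc25a33, passed through a single subset, at 1.51 and 1.93 in type II and 0.463 to 0.951 in the other 4 libraries.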

How the data were processed

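RNA of 3 subsets of sorted thymic ECs was sequenced in 6 libraries, 2 per subset. Per the labels and the methods of the study, the authors mapped the reads to mm9 with TopHat2 2.0.10 and computed FPKM with Cufflinks 2.1.1 in each library on its own, after base calling with CASAVA 1.8. The kit, NEBNext Ultra, does not mark strand. The deposited values are FPKM with the bounds of their 95% intervals, and they were not scaled between libraries; their sum was 221458 to 300932. Cuffdiff, which the authors used for their comparisons, needs reads and was not run. The fragments behind a value were estimated from the upper bound as if the interval held counting error alone, and the floor of 3 fragments covers counting error only.

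From these files, log2(FPKM + 1) of 11717 genes on chromosomes that reached an FPKM of 1 or more in 2 or more libraries was fitted in limma 3.58.1 (R 4.3.3; lmFit, contrasts.fit and eBayes with a trend), with a mean per subset and all 6 libraries in 1 fit. The Benjamini-Hochberg adjustment ran over all genes tested, and a gene was called at an adjusted p below 0.05. Differences are on the log2(FPKM + 1) scale with their standard error, and understate the change of low genes. The script was tested on simulated data. Rows off the chromosomes were left out.

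The members, the substrate classes and the gene lists were chosen with earlier results of these data known and after the supplementary tables of the study had been read. Genes named are all carriers called in any comparison, the 8 with the highest mean FPKM, the largest difference between type III and type I in each class among those with a mean FPKM of at least 5, and a list of carriers of known roles, 1 of which is not reported here. Slc1a1, Slc7a6, Slc7a7, Slc11a1, Slc29a3, Slc35b2, Slc50a1, Bcl6b and B4galnt1 lie outside this rule and were chosen after their values were seen. Deviations of same-numbered libraries from their subset means correlated at 0.199, 0.306 and 0.180 between the pairs of subsets, over genes. The numbers were therefore taken to pair the libraries, on the data and not on the labels. The main fit left this pairing out, so calls and adjusted p without the block are unpaired. The replicate number as a block was an alternative, as were another pseudocount, other filters, scaling by median of ratios or quantiles, no trend, only the libraries compared, and leaving out each library. Promoters came from RefSeq on GRCm38.p6, and the strand of genes on mm9 from GENCODE. Figures were drawn with matplotlib 3.10.9.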

Additional observations from a re-analysis of the deposited data

Results flagged for a closer look

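Outside the gene rows, the files hold a row for a red fluorescent reporter (RGC-mRFP), although the labels call the mice wildtype; no comparison used it. It was above 0 in all 6 libraries, with an FPKM of 18.2 and 1.83 in type I replicates 1 and 2, 23.7 and 5.31 in type II and 28.3 and 3.23 in type III. The estimated fragments were 31 to 34 in the 3 libraries numbered 1 and 4 to 11 in the 3 numbered 2, and the 3 libraries numbered 1 were higher in all subsets, as for Slc40a1 and Slc11a1. The source of these fragments was not tested.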

How the results depend on the processing

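Of the alternatives to the fit of 35 named carriers between type III and type I ECs, 419 values kept their direction and their side of the threshold, 38 lost the call, 8 gained it and 20 changed sign. The calls of Slc2a1, Slc26a10 and Slc6a6 between these subsets held in each alternative that was run. Between type III and type I, 10 carriers were called, against 4 with no filter on low values, 13 with the replicate block and 3 to 8 when 1 library was left out. Between type II and type I, the 1 call became 0 with a pseudocount of 0.1, with no filter and without the trend, 4 with the replicate block and 0 to 1 when 1 library was left out. Between type III and type II, the 0 calls became 2 with median-of-ratios scaling, with quantile normalization and with the replicate block. Beside the calls given with the results, the block that pairs the libraries by replicate number changed no other call. Among carriers that were never called, signs turned under median-of-ratios scaling and quantile normalization for Slc25a4 (-0.07 and -0.06), Slc44a2 (-0.03 and -0.03) and Slc7a5 (-0.02 and -0.03). When 1 library was left out, the difference ranged from -0.02 to 0.35 for Slc25a3, -0.20 to 0.23 for Slc25a4, -0.54 to 0.08 for Slc25a5, -0.06 to 0.78 for Slc2a3, -0.38 to 0.20 for Slc39a1, -0.81 to 1.94 for Slc40a1, -0.17 to 0.29 for Slc44a2 and -0.23 to 0.35 for Slc7a5. The cause was not tested. Values near an FPKM of 0.404 to 0.716 rest on about 3 fragments, which limits Slc26a10 and Slc16a11 in type III and Slc37a1 and Slc16a9 in type I.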
